A study of Mus musculus with 6 samples.

Results

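Memory-like cells marked by *Ccl5*, the gene of a chemokine that attracts T cells and other leukocytes, made up 739 of 13412 (5.51%) CD8 T cells kept from the draining lymph nodes (LN) of mice bearing B16-OVA tumors. A cell was kept where it had 200 to 6000 detected genes, at most 3% mitochondrial reads and at least 1 unique molecular identifier (UMI, a tag that marks a single RNA molecule) each of *Cd2*, *Cd8a* and *Cd8b1*. A kept cell with at least 3 *Ccl5* UMIs is called a *Ccl5* cell below, and kept cells with 0 *Ccl5* UMIs are the comparison. The *Ccl5* UMIs therefore chose the cells, and the level of *Ccl5* in them is a description and not a result.

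The study asked how loss of the IFNγ receptor in CD8 T cells shapes the response to a tumor. The tumor line, B16-OVA, is a mouse melanoma that makes the model antigen ovalbumin. Control mice carried CD8-Cre and a Rosa26Tomato reporter, and CD8-IFNγRKO mice carried both with IFNgR1flox/flox, so that a Cre active in mature CD8 T cells removes a floxed part of *Ifngr1*, the gene of the ligand-binding receptor chain. The mice were 6 to 10 weeks old and of both sexes, and LN were taken on day 12 after engraftment by the labels. CD45+ CD3+ CD8+ Tomato+ cells of 3 mice were pooled into 1 library of 5′ transcript ends per genotype and tissue. Cells of the same pool share their library, no value ties a cell to a mouse, and the genotype cannot be told apart from the library, the pool of mice or the sort. No test between groups could be made, and every interval below is an exact 95% interval for counting error only.

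Memory CD8 T cells differ from naive cells in that they hold ready transcripts for chemokines, cytokines and granule proteins and respond strongly to the cytokines IL-2 and IL-15 through the beta chain encoded by *Il2rb*. The T-box factors Eomes and T-bet, encoded by *Eomes* and *Tbx21*, are known drivers of *Il2rb* and of effector genes in these cells. Central memory cells keep CCR7, which helps to bring T cells from blood into LN, whereas effector and tissue-resident cells largely lose it. Some memory-phenotype CD8 cells arise under homeostatic cytokines without encounter of a foreign antigen.

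The control LN library held 6658 kept cells with 30029269 UMIs, and the CD8-IFNγRKO library 6754 kept cells with 28960267 UMIs. *Ccl5* cells numbered 397 in the control library, or 5.96% (5.41 to 6.56), and 342 in the CD8-IFNγRKO library, or 5.06% (4.55 to 5.61). The intervals of these shares overlap, and their order turned, to 4.54% and 4.69%, without cells that held 2 UMIs of other lineages. That setting was applied at full depth and left out 220 of the 397 and 155 of the 342 *Ccl5* cells. In tumors, cells passing the same limit were the large majority, at 93.7% of kept cells of the control library and 78.7% of the CD8-IFNγRKO library.

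*Ccl5* cells held more RNA than the comparison cells. Their median depth was 6189 UMIs in the control and 5497 UMIs in the CD8-IFNγRKO library, against 3949.5 and 3770 UMIs in cells with 0 *Ccl5* UMIs. Their median mitochondrial share was 1.16% and 1.26%, against 1.16% and 1.22%, so that the depth differed between the groups of cells and the mitochondrial share hardly did. Since a deeper cell passes a limit of 3 UMIs more easily, expression is given as UMIs summed over a group per 1000000 UMIs of that group (CPM), and shares of cells with a UMI were also taken after each cell had been thinned to 1600 UMIs.

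The distribution of *Ccl5* over LN cells had no sharp edge at 3 UMIs. In the control library 5994 cells had 0 *Ccl5* UMIs, 192 cells had 1, 75 had 2 and 50 had 3, whereas 192 cells had 10 or more. The CD8-IFNγRKO library held 6186, 155, 71 and 41 cells at 0, 1, 2 and 3 UMIs, and 151 cells with 10 or more. The median *Ccl5* cell had 9 UMIs in each library, the highest held 169 and 172, and the *Ccl5* cells together held 93.9% and 93.3% of the *Ccl5* UMIs of kept cells.

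**Figure D1:**
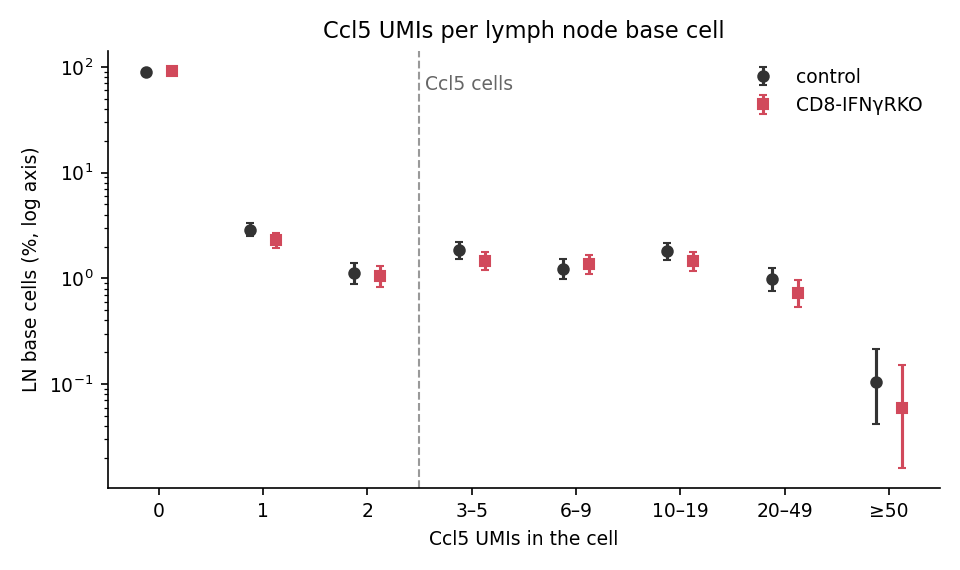
Share of kept LN cells (%, log axis) by the number of *Ccl5* UMIs in the cell, for the control library (black circles) and the CD8-IFNγRKO library (red squares), with exact 95% intervals for counting error. Cells right of the dashed line, with 3 or more UMIs, are the *Ccl5* cells, and the bins there span several counts each. The libraries follow the same course, and most cells sit at 0 UMIs.

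RNA free in the droplets can place a UMI in a cell that does not make the transcript. Barcodes with B cell transcripts and no T cell transcripts numbered 17 in the control and 22 in the CD8-IFNγRKO library, with median depths of 2448 and 2410 UMIs, and 0 of them held a *Ccl5* UMI, which allows a share of up to 17.6% and 13.6%, taken as 3 counts of the total. These barcodes are too few and too shallow to set a close limit. Among barcodes dropped for want of a *Cd2*, *Cd8a* or *Cd8b1* UMI, 3.39% of 6203 and 3.50% of 4460 also held 3 or more *Ccl5* UMIs, and these barcodes are not analysed further. The libraries shared 51 barcodes among their kept cells, and 2 of these were *Ccl5* cells in both.

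The first comparison asked which genes distinguish the *Ccl5* cells from their neighbours in the same LN. *Gzmm*, *Ifng*, *Ccl4*, *Xcl1*, *Il2rb*, *Il18r1*, *Cd44* and *Itgb1* were higher in *Ccl5* cells of both libraries, and *Ccr9*, *Igfbp4*, *Itgae* and *Ramp1* lower. Genes with at least 50 CPM in either group and 100 UMIs over both groups in each library numbered 2708. Of these, 33, or 1.22%, were at least 2-fold higher in *Ccl5* cells of both libraries, *Ccl5* itself among them, and 9, or 0.332%, were at least 2-fold lower in both. The median log2 ratio over all 2708 genes, with 1 CPM added to each level, was -0.05 in the control and -0.10 in the CD8-IFNγRKO library. Of the 33 higher genes, 27 were below 50 CPM in the comparison cells of a library and so entered the count only through their level in *Ccl5* cells, and 6 of the 9 lower genes were below it in the *Ccl5* cells of a library and entered only through the comparison cells. The counts by gene list below, beside these shares of 1.22% and 0.332%, therefore describe the lists and support nothing about them.

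**Figure D2:**
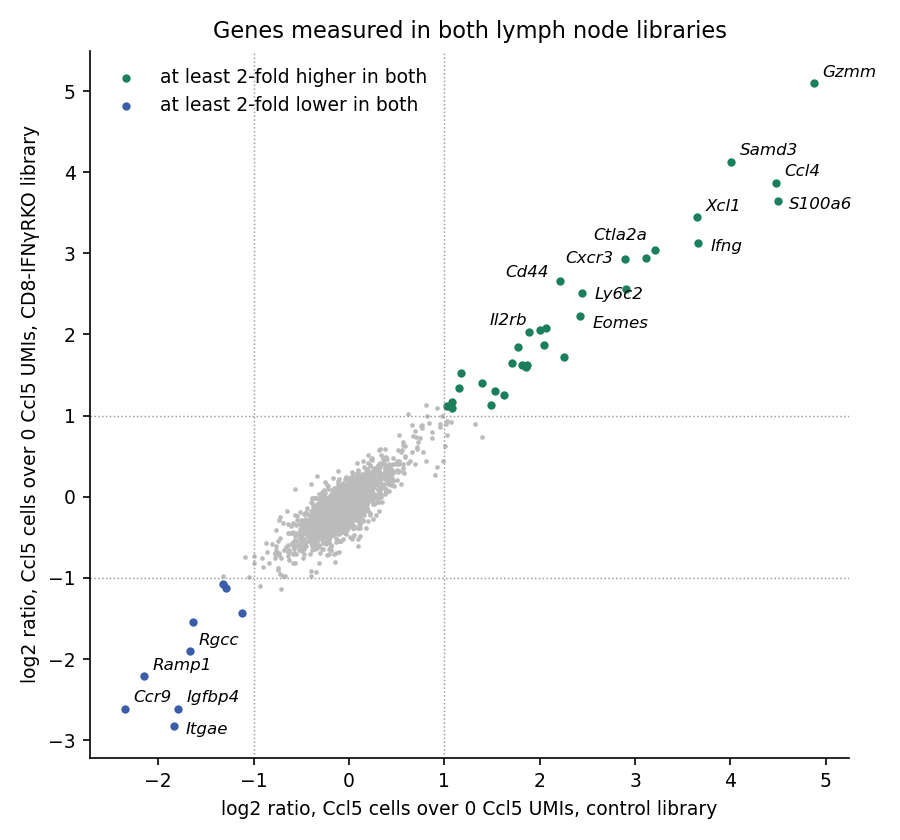
Log2 ratio of pooled CPM (1 CPM added), *Ccl5* cells over cells with 0 *Ccl5* UMIs, in the control library (x axis) and the CD8-IFNγRKO library (y axis), 1 point per measured gene. *Ccl5*, which chose the cells, is outside the axes, *Gzmm* lies farthest out at 4.88 and 5.10, and the genes past a 2-fold limit in both libraries (green and blue) lie in the upper right and lower left corners.

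The label given to these cells rests on *Ccl5*, *Eomes*, *Ly6c2*, *Cxcr3* and *Gzmm*, and since it was set from these data, the levels of the other 4 genes describe the label and add nothing to it. *Eomes*, *Cxcr3* and *Gzmm* were below 50 CPM in the comparison cells and were measured only through the *Ccl5* cells. *Gzmm*, which encodes granzyme M, a granule protease of NK cells and innate-like T cells, stood at 74.0 CPM (63.9 to 85.2) in *Ccl5* cells and 1.55 CPM (1.10 to 2.10) in the comparison cells of the control library. In the CD8-IFNγRKO library it stood at 81.7 CPM (69.9 to 94.9) and 1.41 CPM (0.985 to 1.95). Its log2 ratios of 4.88 and 5.10 were the highest of all measured genes after *Ccl5*. *Cxcr3*, the receptor for the IFNγ-induced chemokines CXCL9 and CXCL10, was at 127 against 16.1 CPM in the control and 132 against 16.5 CPM in the CD8-IFNγRKO library, log2 ratios of 2.90 and 2.93. *Eomes* was at 121 against 21.9 CPM and at 130 against 26.8 CPM, log2 ratios of 2.42 and 2.23. *Ly6c2*, a surface antigen of memory CD8 T cells, was at 2584 against 477 CPM and at 2802 against 493 CPM, log2 ratios of 2.44 and 2.51. Its near-identical neighbour *Ly6c1* was listed at 1.92 and 1.91 CPM, and how reads were split between the pair is uncertain.

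The share of cells with a UMI of these genes followed their levels. After thinning to 1600 UMIs, which left out 3 control *Ccl5* cells and 219 and 40 comparison cells below that depth, *Ly6c2* was seen in 90.6% of control and 94.4% of CD8-IFNγRKO *Ccl5* cells against 24.3% and 24.2% of comparison cells. *Cxcr3* was seen in 18.5% and 21.1% against 1.40% and 1.77%. *Eomes* was seen in 17.8% and 18.1% against 3.10% and 3.40%. *Gzmm* was seen in 11.2% and 13.7% against 0.121% and 0.179%. Without thinning the *Ccl5* cells gave 94.5% and 98.2% for *Ly6c2*, 53.7% and 52.6% for *Cxcr3*, 46.6% and 43.9% for *Eomes*, and 23.9% and 25.7% for *Gzmm*. Of these 4 markers *Ly6c2* alone was detected in most *Ccl5* cells at the thinned depth, so single cells cannot be sorted by the other 3.

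**Figure D3:**
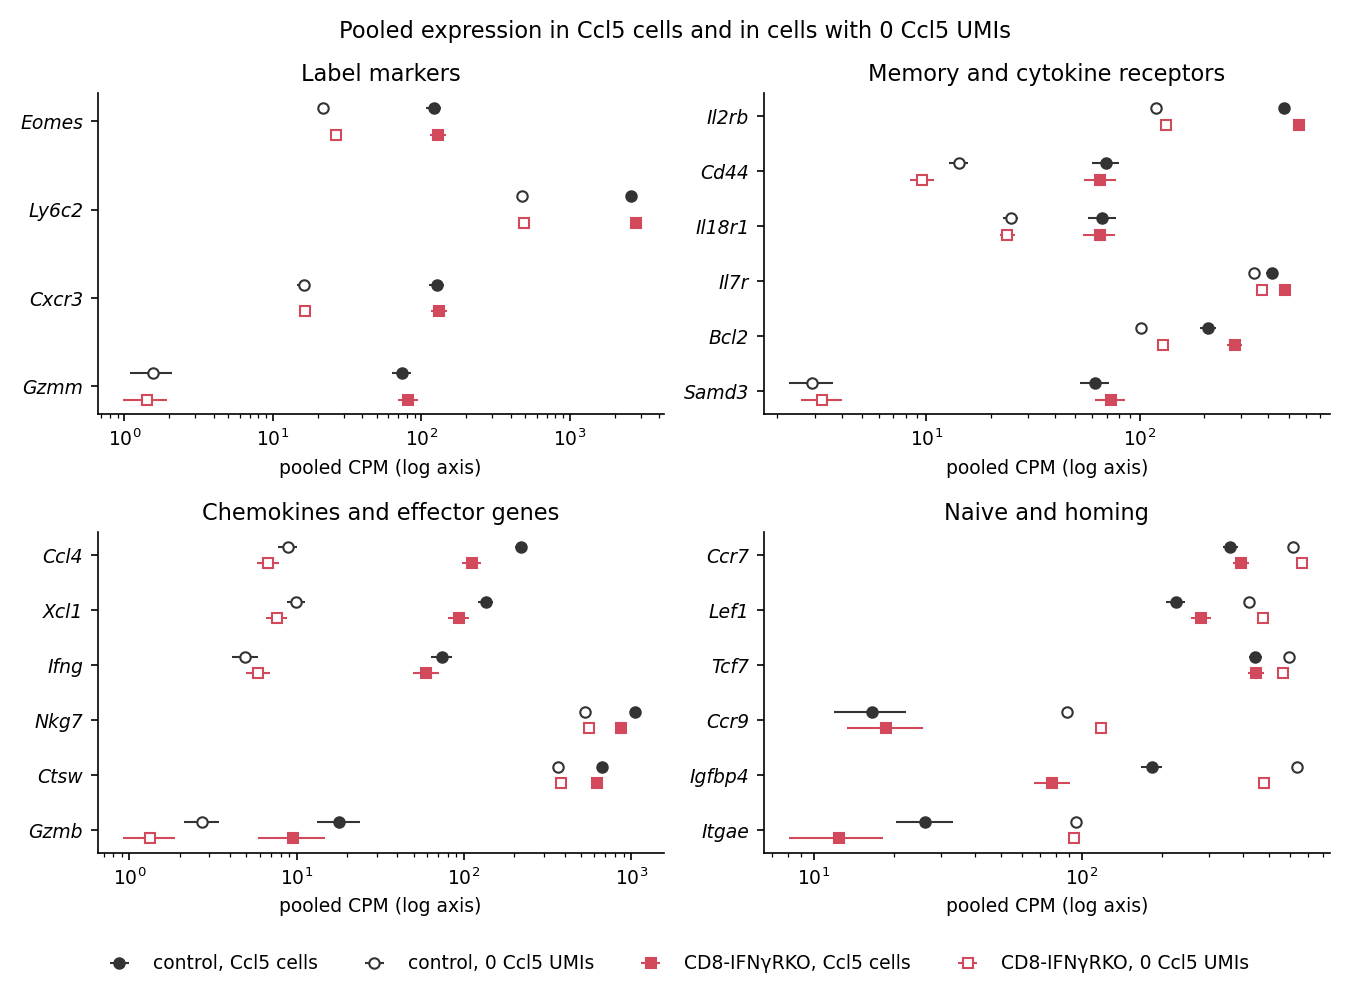
Pooled CPM (log axis) of 22 genes in *Ccl5* cells (filled) and cells with 0 *Ccl5* UMIs (open) of the control (black circles) and CD8-IFNγRKO (red squares) LN libraries, with exact 95% intervals for counting error. The label markers, *Il2rb*, *Cd44*, *Samd3* and the chemokines are higher in *Ccl5* cells of both libraries, *Il7r* is close, and *Ccr9*, *Igfbp4* and *Itgae* are lower.

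Transcription factors with a role in memory and effector cells were mostly below the level needed for measurement. Of 17 factors 6 were measured and 1 was at least 2-fold higher, *Eomes*, which is a label marker and was measured only through the *Ccl5* cells. *Tbx21* did not reach 50 CPM but stood at 31.8 against 1.89 CPM in the control and 34.9 against 2.19 CPM in the CD8-IFNγRKO library. *Runx2* stood at 46.8 against 4.44 CPM and at 31.1 against 3.44 CPM, whereas *Runx3*, a factor that maintains the CD8 lineage, was at 157 against 129 CPM and at 157 against 139 CPM. *Id2*, known from effector differentiation, was no higher in *Ccl5* cells, at 81.7 against 91.6 CPM and 59.7 against 98.5 CPM. *Zeb2* and *Prdm1*, which drive terminal effector cells, were at 2.30 and 0.956 CPM and at 2.68 and 2.87 CPM in *Ccl5* cells. *Klf2*, a factor of quiescent circulating T cells, was level in both kinds of cell, at 2038 against 2114 CPM and 2194 against 2313 CPM.

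The promoters of the genes past 2-fold were searched for 5 strings, the core bound by T-box factors such as Eomes among them, as a description of sequence. The RefSeq table for GRCm38.p6 gives 300 bases per promoter, 250 before and 50 after the start, for 32851 promoters of 27025 genes, and 28 of the 33 higher genes and 8 of the 9 lower genes matched by symbol. The T-box core GGTGTGA, searched on both strands, was present for 6 of the 28 higher genes (21.4%, or 13.3% of their 45 promoters), for 0 of the 8 lower genes, and for 4.60% of all genes (3.98% of all promoters). The 6 windows of 29 bases below are shown because they carry the matched letters in genes that set these cells apart. For genes on the plus strand, the window of *Gzmm* is at chr10:79693626-79693654, with the match starting 189 bases before the start of the gene, that of *Samd3* at chr10:26229681-26229709, 15 bases before it, and that of *Pglyrp1* at chr7:18884601-18884629, 78 bases before it. For genes on the minus strand, the window of *Xcl1* is at chr1:164935693-164935721, with the match 188 bases before the start, that of *Crybg1* at chr10:44022347-44022375, 89 bases before it, and that of *Txndc5* at chr13:38528907-38528935, 100 bases before it. All are written 5′ to 3′ on the strand of the gene, and capitals mark the T-box core or its reverse complement.
Gzmm: ggcagctcttgGGTGTGAccgcatatgca
Samd3: tcctgatgattTCACACCtttctgttctt
Pglyrp1: agtcccgcccaGGTGTGAagcaagccctt
Xcl1: ggtctcatgttGGTGTGAacaaggcaaag
Crybg1: tgggtttaatgTCACACCccaaaaagggc
Txndc5: aagtggtttcaTCACACCccctgaggcca
A match of 7 letters is a description of the sequence and not a binding site. The core was absent from the promoters in the table of *Eomes*, *Ly6c2* and *Cxcr3*, and *Gzmm* had it in 1 of 2. The other 4 strings were counted in the same way. The STAT palindrome TTCNNNGAA was present for 14.3% of the 28 higher genes against 9.55% of all genes, the doubled core of the interferon response element for 10.7% against 3.99%, the AP-1 string TGACTCA for 10.7% against 5.95%, and the NF-kB string GGAANTTCC for 0 against 1.07%. Of the 8 lower genes, 1 held the interferon response string (12.5%), in 18.2% of their promoters against 6.67% for the higher genes, and 0 held the other 3.

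Among cytokine receptor genes, *Il2rb* and *Il18r1* were higher in *Ccl5* cells. Of 21 receptor genes 13 were measured and these 2 were at least 2-fold higher, beside 1.22% of all measured genes and *Il18r1* measured only through the *Ccl5* cells, with a median log2 ratio of 0.05 and -0.30 over the 13. *Il2rb* was at 477 against 119 CPM in the control and 557 against 133 CPM in the CD8-IFNγRKO library, and it was seen in 51.0% and 55.0% of thinned *Ccl5* cells against 15.2% and 17.6%. *Il18r1* was at 66.7 against 24.8 CPM and 65.0 against 24.0 CPM. Its partner *Il18rap* remained under 50 CPM, at 36.4 against 3.82 CPM and 38.7 against 4.49 CPM. *Il7r*, the receptor for the survival cytokine IL-7, was at 417 against 343 CPM and 480 against 376 CPM, well under a 2-fold difference. *Il2rg*, the chain shared by the receptors that use *Il2rb* and *Il7r*, was at 671 against 765 CPM and 635 against 782 CPM.

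The chains of the IFNγ receptor differed in opposite directions. *Ifngr1* was higher in *Ccl5* cells, at 329 against 162 CPM in the control library and 234 against 125 CPM in the CD8-IFNγRKO library, log2 ratios of 1.02 and 0.90. *Ifngr2*, which encodes the signaling chain, was lower, at 4.60 against 34.1 CPM and 6.21 against 39.3 CPM, below the minimum of 50 CPM. UMIs counted at the 5′ transcript end can lie outside the deleted part of *Ifngr1*, so that they do not check the deletion in single cells.

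Of 7 chemokine genes 3 were measured, *Ccl5*, which chose the cells, *Ccl4* and *Xcl1*. *Ccl4* and *Xcl1* were below 50 CPM in the comparison cells and passed the minimum only through the *Ccl5* cells. *Ccl4*, which encodes the chemokine MIP-1β, was at 218 CPM (201 to 237) against 8.81 CPM in the control library and at 112 CPM (97.9 to 127) against 6.72 CPM in the CD8-IFNγRKO library, log2 ratios of 4.48 and 3.87. *Xcl1*, whose product attracts cross-presenting dendritic cells, was at 135 against 9.89 CPM and 93.2 against 7.62 CPM. A single control cell carried 143 of the 353 *Xcl1* UMIs of that group (40.5%), whereas the top *Ccl4* cell carried 9.67% of the control *Ccl4* UMIs.

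Among 11 chemokine receptor genes 4 were measured, *Cxcr3* was higher and *Ccr9* lower, beside 1.22% and 0.332% of all measured genes. *Cxcr3*, a label marker, was measured only through the *Ccl5* cells and *Ccr9* only through the comparison cells. *Ccr9*, the receptor that guides T cells to the small intestine, was at 16.5 against 88.0 CPM in the control and 18.6 against 118 CPM in the CD8-IFNγRKO library, log2 ratios of -2.35 and -2.61. *Ccr7* was at 359 against 615 CPM and 393 against 667 CPM, a difference of less than 2-fold. The inflammatory receptor gene *Ccr2* stayed under 50 CPM, with 23.8 against 0.270 CPM and 8.12 against 0.273 CPM.

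Of 18 cytotoxic and effector genes 8 were measured and 2, *Gzmm* and *Ifng*, were at least 2-fold higher, both of them measured only through the *Ccl5* cells, with a median log2 ratio of 0.86 and 0.68. *Ifng*, the gene of the cytokine itself, was at 73.6 CPM (63.6 to 84.8) against 4.91 CPM in the control and 59.2 CPM (49.3 to 70.6) against 5.90 CPM in the CD8-IFNγRKO library. Thinned to the same depth, 8.88% and 5.26% of *Ccl5* cells had an *Ifng* UMI, against 0.416% and 0.667%. *Nkg7*, a granule membrane protein gene, was at 1055 against 525 CPM and 866 against 560 CPM, and *Ctsw*, which encodes cathepsin W, at 667 against 364 CPM and 626 against 378 CPM. *Gzmb*, the main granzyme of effector cells, had log2 ratios of 2.36 and 2.18 over levels of 2.70 and 1.33 CPM in the comparison cells and was too rare for the filter. *Prf1*, which encodes perforin, was at 46.4 against 42.7 CPM and 57.3 against 42.3 CPM. *Prf1* was not among the measured genes. Its log2 ratios were 0.12 (-0.16 to 0.39) in the control and 0.43 (0.16 to 0.71) in the CD8-IFNγRKO library.

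The memory list held 17 genes, of which 13 were measured, 5 were at least 2-fold higher and 0 lower, with medians of 0.87 and 0.73. The 5 were *Il2rb* and *Bcl2*, and *Cd44*, *Il18r1* and *Samd3*, which were measured only through the *Ccl5* cells. *Samd3*, a gene expressed in memory CD8 and NK cells, was at 61.7 against 2.90 CPM and 73.1 against 3.24 CPM, log2 ratios of 4.01 and 4.13. *Cd44*, the hyaluronan receptor used to mark antigen-experienced cells, was at 69.4 against 14.2 CPM and 65.5 against 9.49 CPM. *Bcl2*, which protects resting lymphocytes from apoptosis, was at 209 against 102 CPM and 279 against 128 CPM, and of 6 measured genes of the BCL2 family it was the only one past 2-fold in both libraries. *Itga4*, a chain of the integrin VLA-4, was lower in the pooled cells, at 49.9 against 81.3 CPM and 44.9 against 89.7 CPM. This did not hold for all *Ccl5* cells. With 10 to 19 *Ccl5* UMIs it stood at 16.9 and 34.3 CPM, and with 20 or more at 111 and 87.4 CPM. In cluster 5, described below, it stood at 439 CPM, against 31.0 CPM in the other *Ccl5* cells. *Cd27* was close at 142 against 150 CPM and 140 against 149 CPM.

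Naive genes were mostly lower by smaller factors. All 16 genes of the list were measured, 0 were at least 2-fold higher and 3, *Ccr9*, *Igfbp4* and *Ramp1*, were lower, with medians of -0.74 and -0.76 against -0.05 and -0.10 over all genes. *Igfbp4*, which encodes an IGF-binding protein of naive T cells, was at 183 against 635 CPM in the control and 77.9 against 479 CPM in the CD8-IFNγRKO library. *Lef1*, a WNT-pathway factor of naive cells, was at 225 against 423 CPM and 279 against 474 CPM, and its partner *Tcf7* at 446 against 593 CPM and 448 against 563 CPM.

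Of 19 adhesion genes 15 were measured, with *Cd44* and *Itgb1* higher and *Itgae* lower, beside 1.22% and 0.332% of all measured genes. *Cd44* and *Itgb1* were measured only through the *Ccl5* cells and *Itgae* only through the comparison cells. *Itgb1*, the integrin beta-1 chain, was at 172 against 35.2 CPM and 111 against 33.0 CPM. *Itgae*, which encodes CD103, the integrin chain that binds E-cadherin on epithelium, was at 26.1 against 95.7 CPM and 12.4 against 93.5 CPM. *S1pr1*, the receptor for egress from LN, was at 131 against 215 CPM and 140 against 239 CPM, and *Cd69*, which retains cells in tissue, was at 472 against 403 CPM and 401 against 371 CPM.

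S100 proteins, annexins and galectins, genes that are higher in most activated and memory T cells, had 4 of 12 measured members at least 2-fold higher and 0 lower, and of the 4, *S100a6* and *Anxa2* were measured only through the *Ccl5* cells. *S100a6* was at 332 against 13.7 CPM in the control and 152 against 11.2 CPM in the CD8-IFNγRKO library, log2 ratios of 4.50 and 3.65. *Anxa2* was at 89.0 against 10.9 CPM and 87.0 against 13.9 CPM, and *Lgals1* at 458 against 147 CPM and 398 against 167 CPM. *Ahnak* was the fourth, at 251 against 76.3 CPM and 279 against 88.2 CPM.

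The remaining genes named by their ratio were *Ctla2a*, which encodes a cathepsin inhibitor-like protein, at 295 against 30.9 CPM and 311 against 37.0 CPM, *1700025G04Rik* at 57.9 against 5.79 CPM and 73.1 against 8.63 CPM, and *Ifitm10* at 89.4 against 20.5 CPM and 91.7 against 20.9 CPM. On the lower side stood *Ramp1*, which encodes a coreceptor for the neuropeptide CGRP, at 16.9 against 78.3 CPM and 18.6 against 90.1 CPM. *Rgcc* was at 109 against 351 CPM and 108 against 406 CPM. The log2 ratios of *Als2cl*, *Rflnb*, *Selenop* and *Rab3ip* lay between -1.07 and -1.64 in the 2 libraries, and those of *Slc12a7*, the next gene, were -1.05 and -0.99.

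In several gene lists no member passed, which for lists of this size cannot be told from the 1.22% higher and 0.332% lower over all measured genes. Of 12 measured genes of activation and the immediate early response 0 passed 2-fold in both libraries, with *Junb* at 1987 against 1910 CPM and 1668 against 1913 CPM. Of 19 measured IFNγ response genes 0 passed, with medians of -0.29 and -0.15. None of the 12 measured type I interferon response genes or the 10 heat shock genes passed. Of 17 inhibitory receptor and exhaustion genes 3 were measured and 0 passed, and of 16 cell cycle genes 2 were measured and 0 passed. *Pdcd1*, the gene of PD-1, stood at 1.92 against 0.811 CPM and 0.956 against 1.02 CPM, and *Lag3* at 2.30 and 1.43 CPM in *Ccl5* cells.

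Killer lectin-like and NK receptors were mostly too rare for the filter, with 2 of 28 genes measured and 0 past 2-fold, though some below it had high ratios. *Klrc1*, which encodes NKG2A, was at 44.1 against 0.502 CPM in the control and 34.9 against 0.234 CPM in the CD8-IFNγRKO library. *Klrk1*, which encodes NKG2D, was at 23.8 against 0.464 CPM and 13.4 against 0.820 CPM. *Klrg1*, a marker of short-lived effector cells, had 0 UMIs in the *Ccl5* cells of both libraries, with intervals that reach up to 1.41 and 1.76 CPM. *Klrd1*, the partner of NKG2A, was at 207 against 186 CPM and 238 against 206 CPM. The *Klra* genes are near-identical copies whose counts are uncertain and are not compared.

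Markers of other cell types were looked at in the same cells. Of 8 B cell genes only *Ighm* was measured, at 182 against 229 CPM and 167 against 235 CPM, and the summed level of the list was 212 against 248 CPM and 191 against 261 CPM. *Cd79a* stood at 3.84 and 0.478 CPM in *Ccl5* cells, and *Ms4a1* at 2.68 CPM in control and 0 in CD8-IFNγRKO *Ccl5* cells. Of 12 myeloid genes only *Cst3* was measured, at 76.7 against 76.6 CPM and 72.1 against 72.2 CPM, and the list summed to 88.6 against 79.4 CPM and 78.4 against 75.1 CPM. Of 7 genes of NK cells *Eomes*, which these T cells also use, was measured, while *Ncr1*, which defines NK cells, was at 0 in every group and *Klrb1c* was at 0.384 and 0.478 CPM. *Gzma*, a granzyme gene of the same list that was below the minimum, stood at 16.9 against 1.35 CPM and 2.87 against 0.469 CPM, and the list, *Eomes* included, summed to 145 against 23.7 CPM and 143 against 27.9 CPM. Of 7 CD4 and regulatory T cell genes 0 were measured, and *Cd4* was at 7.67 against 10.3 CPM and 8.12 against 19.1 CPM. Of 11 γδ and NKT cell genes 0 were measured, *Zbtb16* was at 0 in every group, *Trdc* was at 5.75 and 1.43 CPM in *Ccl5* cells, and *Cd163l1* was at 31.4 against 0.270 CPM and 23.4 against 0.430 CPM. *Cd163l1* was the most abundant of that list, which summed to 40.3 against 1.93 CPM and 26.8 against 3.09 CPM, and its part in the other differences was not tested.

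TCR beta V segments were about as varied in *Ccl5* cells as in the comparison cells. A *Trbv* gene was assigned to 373 of 397 control (94.0%) and 322 of 342 CD8-IFNγRKO (94.2%) *Ccl5* cells, and 21 genes were seen in each. The effective number of *Trbv* genes, the inverse Simpson index, was 16.1 and 14.8 against 16.8 and 17.0. The most used gene was *Trbv12-2* in the control (9.65%) and *Trbv16* in the CD8-IFNγRKO *Ccl5* cells (11.2%). V segments do not identify clones, and no TCR library of LN was analysed here.

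Levels of the label markers were followed from 0 to 20 or more *Ccl5* UMIs. Cells at 2 UMIs, just outside the limit, had 110 and 101 CPM of *Eomes*, and cells at 3 UMIs, just inside, had 91.4 and 103 CPM. *Ly6c2* was at 2333 and 2436 CPM at 2 UMIs and 2309 and 2558 CPM at 3 UMIs. *Cxcr3* was at 119 and 110 CPM at 2 UMIs and 97.3 and 98.5 CPM at 3 UMIs, so that for these genes the cells at either side of the limit were alike. *Gzmm* was at 45.9 and 41.7 CPM at 2 UMIs and 82.6 and 45.2 CPM at 3 UMIs.

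Some genes went on changing inside the limit. *Il2rb* was at 335 and 479 CPM in cells with 3 to 5 *Ccl5* UMIs and 620 and 744 CPM in cells with 20 or more. *Gzmm* was at 62.2 and 70.6 CPM in the lower and 102 and 118 CPM in the upper group. *Ccr7* was at 433 and 402 CPM in the lower group and 245 CPM in the control and 395 CPM in the CD8-IFNγRKO upper group. *Lef1* was at 274 and 313 CPM in the lower and 193 and 208 CPM in the upper group.

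**Figure D4:**
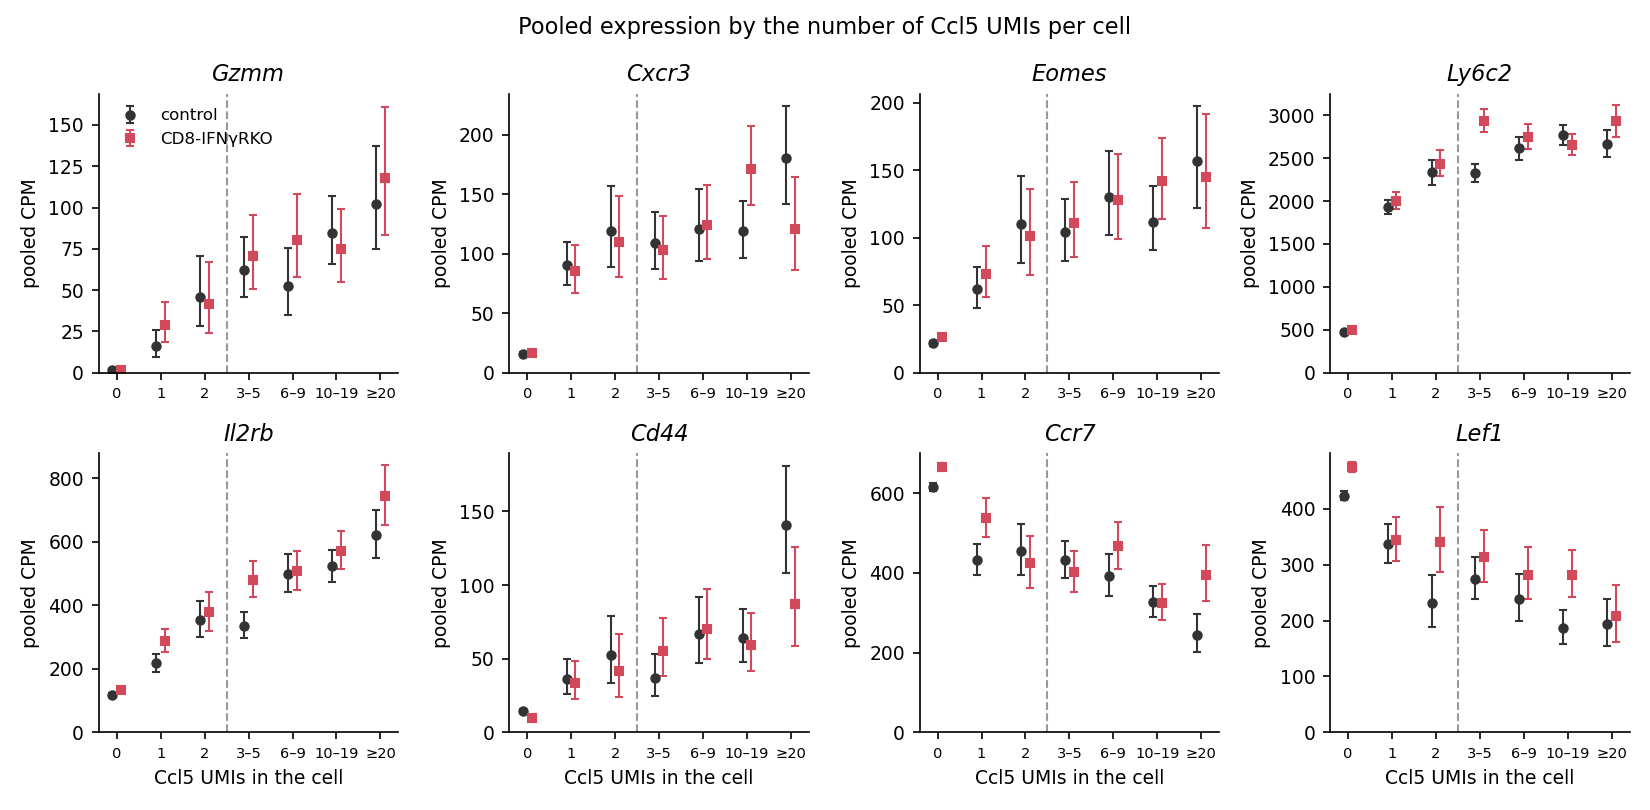
Pooled CPM of 8 genes in LN cells grouped by their number of *Ccl5* UMIs, control (black circles) and CD8-IFNγRKO (red squares), with exact 95% intervals for counting error. The dashed line is the limit of 3 UMIs. *Ly6c2*, *Eomes* and *Cxcr3* are already high in cells with 2 *Ccl5* UMIs, *Gzmm* and *Il2rb* are highest at 20 or more, and *Lef1* is highest at 0.

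The *Ccl5* cells were not uniform. Leiden clustering of the 739 cells without *Ccl5* among the genes used gave 6 clusters, whose leading genes describe how they were split and are not results. Membership depended on the settings, with an adjusted Rand index of 0.28 to 0.48 between this clustering and 4 others that gave 3 to 9 clusters, so that values by cluster hold for this clustering only. The main group, cluster 1 with 284 cells, was led by *Cd163l1*, *Gzmm* and *Klra7* and had 135 CPM of *Gzmm* and 677 CPM of *Il2rb*. Cluster 2 with 196 cells was led by *Nfkbid*, *Xcl1* and *Egr2*. Cluster 3 with 144 cells was naive-like by 3 markers among its leading genes, *Ccr9*, *Igfbp4* and *Dapl1*, and had 74.2 CPM of *Eomes* and 85.3 CPM of *Cxcr3*, each above the level of the cells with 0 *Ccl5* UMIs.

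The smaller clusters held 49, 41 and 25 cells. Cluster 4 was interferon-stimulated-like, with *Isg15*, *Ifit3* and *Ifit1* among its leading genes. Cluster 5 was led by *S100a4*, and its leading genes also held *Cd74*, *H2-Ab1* and immunoglobulin segments of antigen-presenting and B cells beside *Lgals3*, *Gzmk* and *Itga4*, so it keeps its number only. It had 83.7 CPM of *Ccr7*, against 305 CPM in cluster 1, and the most *S100a6* (2311 CPM), *Itgb1* (1009 CPM) and *Ifng* (241 CPM) of the 6 clusters. Cluster 6 was cycling by *Mki67*, *Top2a*, *Birc5*, *Pclaf*, *Rrm2* and *Stmn1*, and its median of 10799 UMIs was the highest. Since *S100a4*, *S100a6* and histone genes that lead clusters 5 and 6 also differed between the libraries, cluster sizes are not compared between genotypes.

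Tumor CD8 cells of the same mice differed from LN *Ccl5* cells in several markers. *Gzmm* stood at 1.16 and 2.30 CPM in all kept tumor cells of the control and CD8-IFNγRKO libraries, and *Samd3* at 3.78 and 7.62 CPM. *Pdcd1* stood at 818 and 619 CPM and *Gzmb* at 3359 and 4872 CPM there. *Ly6c2*, at 1989 and 1834 CPM, was nearer to its level in LN *Ccl5* cells. With 1 library per tissue these values stand side by side without a test.

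The second comparison asked how the *Ccl5* cells of CD8-IFNγRKO mice differed from those of control mice. The log2 ratios of *Eomes*, *Ly6c2*, *Cxcr3* and *Gzmm* lay between 0.06 and 0.14, whereas *Ly6a*, *Igfbp4*, *Ccl4*, *Jak3* and *Zbp1* were lower in CD8-IFNγRKO *Ccl5* cells and *Hsph1*, *Rsrp1* and *Washc4* higher. *S100a6* was also lower, with a ratio of -1.12 that came to -0.43, inside the limit, without the 41 cells of cluster 5. Of 2680 measured genes 32, or 1.19%, had a log2 ratio of at most -0.5 and 12, or 0.448%, of at least 0.5. Genes were measured with at least 50 CPM in the *Ccl5* cells of either library. *Ly6a*, *Hist1h2ae*, *S100a4*, *Abi3*, *Jak3*, *Ctse* and *Zbp1* were below that in CD8-IFNγRKO cells and entered only through the control. *Washc4*, *Sla2*, *Slain1*, *Tdrp*, *Lyst* and *Msl2* were below it in control cells and entered only through CD8-IFNγRKO. These counts, and those by list, describe the genes and support nothing about them. The median ratio was -0.02. With CPM taken over a total without TCR, ribosomal, mitochondrial and heat shock genes, 4168 genes were measured, of which 72 passed as lower and 49 as higher, 28 and 12 of them the same genes as before. In the cells with 0 *Ccl5* UMIs, 8 of 2759 measured genes passed in each direction (0.290%). The larger count in the *Ccl5* cells comes with wider intervals, whose median width was 0.57 on the log2 scale against 0.17. Of the 32 lower genes 22 were measured in the comparison cells and 4 passed there too, and of the 12 higher genes 11 were measured there and 3 passed.

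*Ifngr1*, the targeted gene, was at 329 CPM in control and 234 CPM in CD8-IFNγRKO *Ccl5* cells, a log2 ratio of -0.49 (-0.66 to -0.33), and the ratio was -0.37 in the comparison cells. In all kept tumor cells it stood at 718 and 237 CPM. None of the 5 label markers passed the limit. The log2 ratio of CD8-IFNγRKO over control was 0.10 for *Eomes* (-0.14 to 0.34), 0.12 for *Ly6c2* (0.07 to 0.17), 0.06 for *Cxcr3* (-0.18 to 0.29) and 0.14 for *Gzmm* (-0.16 to 0.45). The count was also 0 of 12 measured memory genes and 0 of 9 cytotoxic genes, which cannot be told from the 1.19% lower and 0.448% higher over all measured genes.

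*Ly6a* had the lowest ratio. It encodes Sca-1, a surface antigen that interferons induce in T cells, and stood at 145 CPM (130 to 160) in control and 23.9 CPM (17.7 to 31.5) in CD8-IFNγRKO *Ccl5* cells, a log2 ratio of -2.55 (-3.05 to -2.17). The comparison cells stood at 68.1 and 18.6 CPM, a ratio of -1.82. Thinned, 13.7% of control and 3.22% of CD8-IFNγRKO *Ccl5* cells had a *Ly6a* UMI, and 31.7% and 9.65% without thinning. In the control library *Ly6a* was higher in *Ccl5* cells than in the comparison cells, with a log2 ratio of 1.08, and in the CD8-IFNγRKO library the ratio was 0.35. Of 20 measured IFNγ response genes 3 passed as lower, beside 1.19% of all measured genes, and 0 as higher, beside 0.448%. *Ly6a* and *Psmb9* were among the 3, and *Ly6a* was measured only through the control *Ccl5* cells. The median of the 20 was -0.15 in *Ccl5* cells and -0.19 in the comparison cells. *Psmb9*, an immunoproteasome subunit, was at 174 against 121 CPM. *Jak3*, the kinase bound to the common gamma chain, was at 88.6 against 48.7 CPM, with a ratio of -0.85 beside -0.60 in the comparison cells. *Zbp1*, a sensor of nucleic acids induced by interferon, was at 68.6 against 38.7 CPM, with -0.81 beside -0.50.

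Genes of the *Ccl5* cell profile itself differed too. *Ccl4* was at 218 CPM in control and 112 CPM in CD8-IFNγRKO *Ccl5* cells, a log2 ratio of -0.96 (-1.19 to -0.74), and 30.2% and 14.9% of the cells had a UMI, or 14.0% and 8.77% after thinning. The 5 cells with most *Ccl4* carried 29.0% of its control UMIs and 40.6% of its CD8-IFNγRKO UMIs. By cluster the difference was uneven, at 231 against 198 CPM in cluster 1 and 359 against 41.4 CPM in cluster 2. In cluster 3 it was 127 against 40.5 CPM, and in clusters 4, 5 and 6 the CD8-IFNγRKO level was the higher, at 57.0 against 124 CPM, 255 against 265 CPM and 90.3 against 121 CPM. Clusters 4, 5 and 6 held only 22, 7 and 8 CD8-IFNγRKO cells. The counting intervals of the 2 libraries overlap in each of them, as in cluster 1. *Xcl1* had a ratio of -0.53, but 1 control cell held 143 of its 353 control UMIs (40.5%), and the ratio without that cell was not taken. After thinning, the share of *Ccl5* cells with an *Xcl1* UMI ran the other way, at 9.90% in control and 11.4% in CD8-IFNγRKO. Without thinning it was 31.2% and 28.1%, so the ratio of *Xcl1* is not read as a difference. *Igfbp4* was at 183 against 77.9 CPM, a ratio of -1.22 (-1.49 to -0.97) beside -0.41 in the comparison cells, and 17.0% against 7.31% of thinned *Ccl5* cells had a UMI.

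For *S100a4*, *S100a6* and *Hist1h2ae* the ratio moved when a small cluster was left out. Cluster 5 held 34 control and 7 CD8-IFNγRKO cells and cluster 6 held 17 and 8, and these sizes are not compared. *S100a4* and *S100a6* are among the leading genes of cluster 5 and *Hist1h2ae* among those of cluster 6. Leaving out cells grouped in this way is therefore no independent check of these genes. Their values without a cluster describe this clustering only and support nothing about the genotype. *S100a4* was at 89.0 against 29.1 CPM, a ratio of -1.58, but 39 control and 15 CD8-IFNγRKO *Ccl5* cells held all its UMIs, and 1 CD8-IFNγRKO cell held 33 of the 61 UMIs of that library (54.1%). Without cluster 5 it was at 20.9 against 21.3 CPM, a ratio of 0.03 (-0.59 to 0.64), whereas the ratio was -2.58 (-3.30 to -2.08) without cluster 6 and -1.05 (-2.41 to -0.09) without both. *S100a6* was at 332 against 152 CPM, a ratio of -1.12, and without cluster 5 at 187 against 138 CPM, a ratio of -0.43. *Hist1h2ae*, a replication-dependent histone gene with near-identical copies whose counts are uncertain, was at 54.8 against 16.2 CPM, a ratio of -1.70, and without the cycling cluster 6 at 12.5 against 7.02 CPM, a ratio of -0.75 (-1.86 to 0.13). *Ly6a* kept ratios of -2.55 and -2.51 and *Ccl4* of -0.97 and -1.03 without cluster 5 and without cluster 6.

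**Figure D5:**
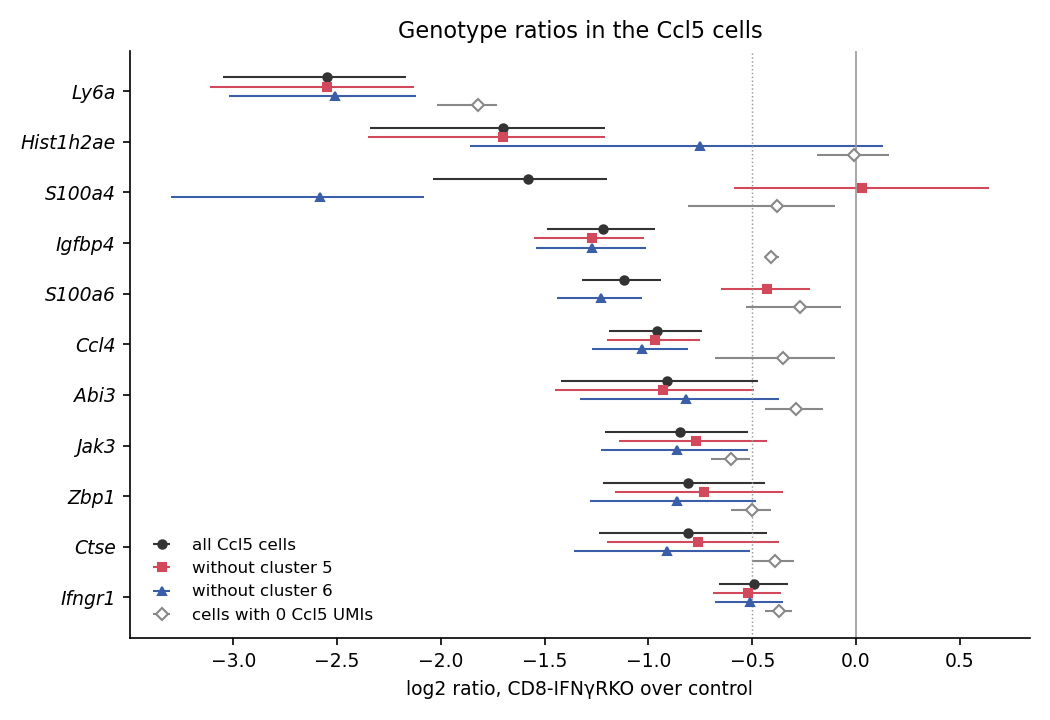
Log2 ratio of pooled CPM (1 CPM added), CD8-IFNγRKO over control, for the 10 lowest genes and *Ifngr1* in all *Ccl5* cells (black circles), without cluster 5 (red squares), without cluster 6 (blue triangles) and in cells with 0 *Ccl5* UMIs (open diamonds), with exact 95% intervals for counting error. The dotted line is the limit of -0.5. *S100a4* goes to 0.03 without cluster 5 and to -2.58 without cluster 6, *Hist1h2ae* to -0.75 without cluster 6, and *Ly6a* stays near -2.5.

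The 10 lowest genes also held *Abi3* at 50.2 against 26.3 CPM and *Ctse* at 63.7 against 35.8 CPM, with ratios of -0.91 and -0.81. The higher genes had smaller ratios. *Washc4* was at 34.5 against 58.8 CPM, the highest at 0.75 (0.36 to 1.18), with 0.28 in the comparison cells. *Sla2*, an adaptor that restrains TCR signaling, was at 33.0 against 52.6 CPM (0.66), and *Slain1* at 39.9 against 61.6 CPM (0.62). *Hsph1* and *Dnajb1*, heat shock genes, had ratios of 0.61 and 0.55 in *Ccl5* cells and 0.61 and 0.52 in the comparison cells, so that both kinds of cell differed alike between the libraries. *Rsrp1* also had like ratios in both, 0.61 and 0.60. *Tdrp*, *Lyst*, *Msl2* and *Taok3* lay between 0.53 and 0.60 in *Ccl5* cells. *Washc4*, *Sla2*, *Slain1*, *Tdrp*, *Lyst* and *Msl2* were measured only through the CD8-IFNγRKO *Ccl5* cells, and *Abi3* and *Ctse* only through the control *Ccl5* cells.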

How the data were processed

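5′ single-cell RNA libraries of CD8+ Tomato+ cells from draining LN and B16-OVA tumors, 1 of 3 pooled mice per tissue and genotype, were used, and the TCR libraries of tumors were not. Reads had been mapped by the authors with Cell Ranger 6.0.0 (mouse mm10 reference, 32285 genes), and they deposited unnormalized UMI counts per gene for the barcodes called cells. How reads are shared between near-identical genes in these counts is not given in the sources used here.

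The counts were analysed in Python 3.11.15 with pandas 2.3.3, scipy 1.17.1, anndata 0.12.19 and numpy 2.4.6. Barcodes numbered 12979 in the control and 11298 in the CD8-IFNγRKO LN library, 12861 and 11214 after the limits on genes and mitochondrial UMIs, and 6658 and 6754 after those on *Cd2*, *Cd8a* and *Cd8b1*. The study's further limit on cells in which a gene holds over 20% of UMIs was an alternative. Doublets were not removed, and leaving out the deepest 5% of cells was an alternative. The members, gene lists and limits were chosen with earlier results of these data known.

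UMIs were summed per library and group of cells, and log2 ratios were taken of CPM with 1 CPM added. Exact intervals were Clopper-Pearson for a share, Poisson for a CPM and conditional binomial for a ratio without added CPM. They cover counting error only, and with low counts a ratio with 1 CPM added can lie outside its interval. The calculation was tested on simulated data with known ratios. TCR segments were left out of the measured genes. Mitochondrial and ribosomal protein genes were left out only of the genes named, and stayed in the counts and medians over measured genes. The UMIs of all 3 kinds stayed in the CPM total of the main setting. The genes named are the 15 highest and 10 lowest by the smaller ratio of the libraries in the comparison of cells, the 10 highest and 10 lowest in the comparison of genotypes, the label markers, *Ifngr1*, and members of the lists with the largest and smallest ratios or that a sentence on a list needs. Some genes of the lists are counted in them but not reported here. A *Trbv* gene was assigned where it had at least 2 UMIs and more than any other. Cells were thinned by drawing 1600 UMIs without replacement. Clusters came from scanpy 1.11.5 with igraph 0.11.9 (1000 variable genes without TCR segments, *Ccl5*, *Ifngr1*, ribosomal, mitochondrial, heat shock and sex-linked genes, centred within each library, 15 principal components, 15 neighbours, resolution 0.5), and leading genes were the 10 with the largest fold over the other *Ccl5* cells with 10 CPM added. Plots were made with matplotlib 3.10.9.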

Additional observations from a re-analysis of the deposited data

Results flagged for a closer look

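Of 134 named or listed genes measured both in *Ccl5* cells and in cells with 0 *Ccl5* UMIs, 6 had genotype ratios (log2, CD8-IFNγRKO over control) of opposite sign in the 2 kinds of cell, with each interval for counting error away from 0. The same share over all genes measured in both kinds of cell was not taken, so the count of 6 is not read as a result. The difference between the ratios was not tested, since each rests on 1 library per genotype. *Ifi27l2a*, an interferon-induced gene, had a ratio of -0.27 (-0.40 to -0.13) in *Ccl5* cells and 0.39 (0.36 to 0.43) in the comparison cells. *Id2*, which encodes an inhibitor of E proteins, had -0.45 (-0.78 to -0.13) and 0.10 (0.02 to 0.19). *Nr4a1*, an early target of TCR signals, had -0.40 (-0.72 to -0.11) and 0.15 (0.04 to 0.27). *Nkg7* had -0.28 (-0.37 to -0.20) and 0.09 (0.06 to 0.13). *Lgals1*, which encodes galectin-1, had -0.20 (-0.33 to -0.07) and 0.18 (0.12 to 0.25). In cluster 5, with 34 control and 7 CD8-IFNγRKO cells, it stood at 2129 and 985 CPM, and in cluster 6 at 697 and 2041 CPM. In cluster 1 it stood at 347 and 382 CPM, and how far its ratio rests on clusters 5 and 6 was not tested. *Srgn*, which encodes the granule proteoglycan serglycin, had -0.18 (-0.30 to -0.05) and 0.08 (0.05 to 0.12).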

How the results depend on the processing

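No paired analysis was possible because each genotype and tissue has 1 library. The comparison of cells was made within each of the 2 libraries and printed for each, with no test, since the cells were chosen by their UMIs and the libraries differ in genotype. The 25 genes named in the comparison of cells had 450 values under 18 alternatives. None was of opposite sign to the main value, and 104 moved beyond the counting interval. A value whose sign differed between the libraries was set to 0 and not counted as opposite. The 21 genes of the comparison of genotypes kept their direction in 356 of 357 values. The exception was *S100a4*, at 0.03 without cluster 5, though it was -2.58 without cluster 6. Several alternatives could not turn a direction, so these counts overstate how well directions held. They are the added CPM, the minimum of CPM and UMIs and, in the comparison of cells, either library alone.

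The share of *Ccl5* cells, 5.96% in control and 5.06% in CD8-IFNγRKO, was 9.97% and 8.41% at a limit of 1 UMI, 7.09% and 6.11% at 2, 4.75% and 3.94% at 5, and 2.88% and 2.24% at 10. It was 4.72% and 4.44% without the limits on *Cd2*, *Cd8a* and *Cd8b1*, 2.91% and 2.47% after thinning, and 5.23% and 4.36% without the deepest 5% of cells. It was 4.54% and 4.69% without cells with 2 UMIs of other lineages, which turned the order of the libraries and left 177 of 397 and 187 of 342 *Ccl5* cells. That setting was applied without thinning. After thinning, 9.14% and 8.19% of *Ccl5* cells held 2 such UMIs, against 11.7% and 12.0% of comparison cells.

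The 33 genes higher in *Ccl5* cells were 54 with a minimum of 20 CPM, 8 with 200 CPM and 198 with no filter, and the 9 lower genes 34, 2 and 120. The lower genes were 19 of 4065 measured with a total without TCR, ribosomal, mitochondrial and heat shock genes, 15 at a limit of 10 *Ccl5* UMIs, 14 without the deepest 5% of cells, and 14 in the control or in the CD8-IFNγRKO library alone.

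By genotype, the 12 higher and 32 lower genes were 53 and 114 with a minimum of 20 CPM, 3 and 8 with 200 CPM, 1553 and 1519 with no filter, 49 and 72 with that total, 40 and 81 at a limit of 10 *Ccl5* UMIs, 23 and 65 without the deepest 5% of cells, 31 and 91 without cells with 2 UMIs of other lineages, and 26 and 52 without cells with 2 UMIs of cell cycle genes. The higher genes were 7 with 10 CPM added, 25 after thinning, and 20 without clusters 5 and 6, and the lower genes 49 by the mean of single-cell CPM. The 6 clusters became 3 at resolution 0.3, 9 at 0.8 and 4 without centring, and with 10 principal components 6 clusters had an adjusted Rand index of 0.28 with those described. Alternatives that leave out clusters, or cells with a gene above 20% of UMIs, were added after the data had been seen. Why these counts changed was not tested, beyond that a lower minimum of CPM measures more genes. With 397 and 342 cells, a log2 genotype ratio had a median interval width of 0.57.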
